A study of Homo sapiens with 3 samples.

Results

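The genes encoding aminoacyl-tRNA synthetases were followed through a genome-wide CRISPR knockout screen for survival of ferroptosis. Members were taken by symbol: every target named with one amino acid letter followed by ARS, with or without a closing 2, A or B, together with EPRS. This gave 37 genes with 6 single-guide RNAs (sgRNAs) each, or 222 sgRNAs among 119461 sgRNAs and 21815 targets in the GeCKOv2 count tables. Of the 37 genes, 20 encode cytosolic enzymes, GARS and KARS among them, and carry 120 sgRNAs. The other 17, whose symbols end in 2, encode mitochondrial enzymes and carry 102 sgRNAs. The tables use the symbols of the library's design, of which 19 are current in the RefSeq table of GRCh38.p14 and 18 matched as older names (AARS is now AARS1).

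The cells were Huh-7, an established human hepatocellular carcinoma line, carrying the GeCKOv2 library, which delivers Cas9 and one sgRNA by lentivirus, and all 3 populations had passed antibiotic selection for the vector. One population was left without drug (untreated). Another survived 0.1 µM RSL-3, an inhibitor of the lipid peroxidase GPX4, and the last survived 0.03 µM RSL-3 with 50 mM linoleic acid (RSL-3/LA), each given for 24 h and followed by regrowth and renewed selection, so the survivor populations differ in RSL-3 dose as well as in linoleic acid, and by the study's methods possibly in the number of selection rounds. Each condition was sequenced as 1 library, so every difference below compares libraries, with no replicate check and no p-value. The sgRNA counts come from genomic DNA and hold no transcripts, so the identity of the line could not be checked against expressed markers.

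An aminoacyl-tRNA synthetase joins one amino acid to its matching tRNAs, and the ribosome depends on these charged tRNAs for every codon it reads. Cytosol and mitochondria mostly use separate enzymes from separate nuclear genes, although GARS and KARS each encode both forms. Several cytosolic enzymes sit together in the multisynthetase complex, and shortage of charged tRNA is sensed by the kinase GCN2 (EIF2AK4), which raises ATF4. Links to ferroptosis are known for single members: loss of CARS, the cysteinyl enzyme, raises transsulfuration and protects cells from erastin, and SARS, the seryl enzyme, also charges the selenocysteine tRNA needed to make GPX4.

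The libraries had nearly equal totals, with 1466896 counts (untreated), 1467705 (RSL-3) and 1485991 (RSL-3/LA), but not equal depth for most sgRNAs. The 10 most abundant sgRNAs took 0.397% of the untreated counts, 64.7% of the RSL-3 counts and 18.1% of the RSL-3/LA counts, which left the fewest counts for the others in RSL-3. Only 19153 sgRNAs (16% of all) had at least 1 count in the untreated library, 2938 (2.46%) in RSL-3 and 4970 (4.16%) in RSL-3/LA. A count of 0 in the untreated library did not mean absence from the cells: 74.4% of the sgRNAs detected in RSL-3 and 75.9% of those in RSL-3/LA had no untreated count. An sgRNA at 0 was taken to hold at most 3 counts, or 0.000205%, 0.000204% and 0.000202% of the respective libraries. Counts were scaled to the library total (CPM, counts per 1000000). All intervals are exact 95% binomial intervals unless another method is named. Intervals of shares of sgRNAs or genes take each sgRNA or gene as a separate draw within 1 library. Those of counts and CPM, and the limits, cover counting error alone. None covers differences between libraries. Reads copied by PCR are not separate molecules, and the 6 sgRNAs of one gene share a target, so the intervals can be too narrow.

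In the untreated library the synthetase genes were thinly represented. At least 1 count was found for 20 of 222 sgRNAs, or 9.01% (5.59 to 13.6%), against the 16% of all sgRNAs given above and 15.9% (15.7 to 16.2%) of all gene-targeting sgRNAs. The cytosolic and mitochondrial enzymes lay close together, at 10 of 120 sgRNAs (8.33%, 4.07 to 14.8%) and 10 of 102 (9.80%, 4.80 to 17.3%), a difference of 1.47 percentage points with a Newcombe interval from -6.23 to 9.68. This interval is wide enough to hold a difference in either direction. Leaving out GARS and KARS gave 9 of 108 cytosolic sgRNAs, again 8.33%.

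**Figure D1:**
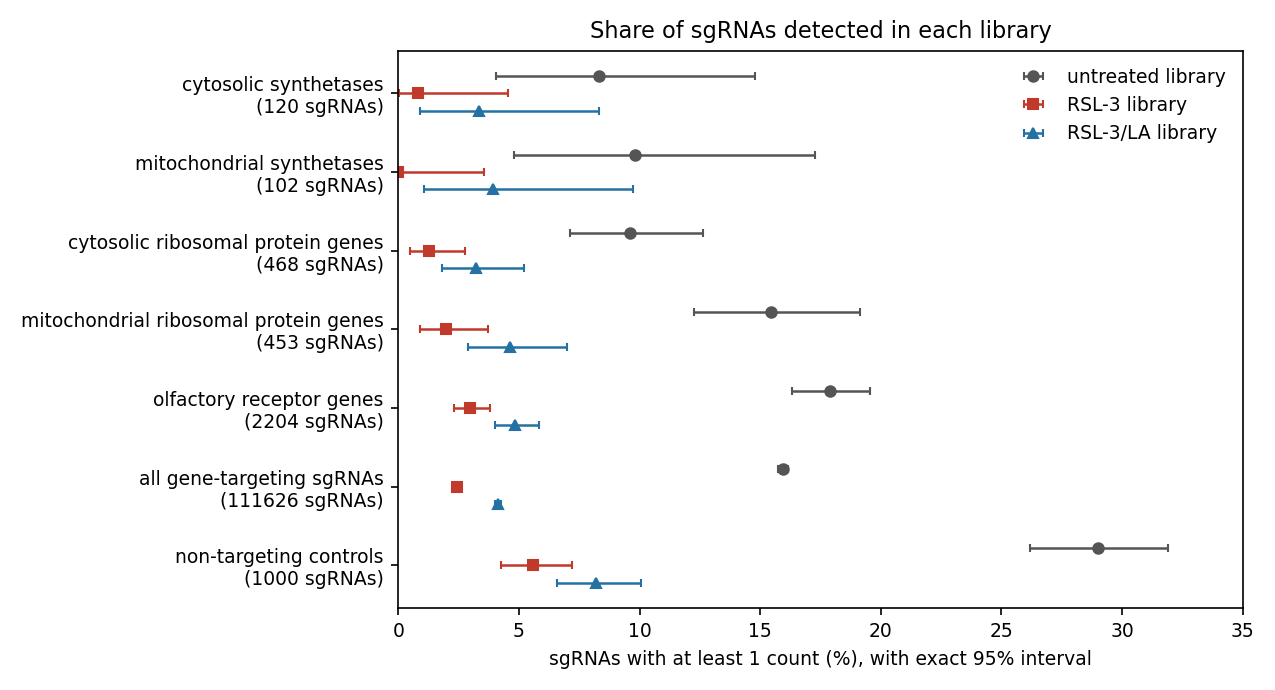
Percentage of sgRNAs with at least 1 count (x axis) for the synthetase genes and the comparison sets (rows), with colours for the 3 libraries. Points are shares and bars are exact 95% binomial intervals that take each sgRNA as a separate draw. Cytosolic (8.33%) and mitochondrial (9.80%) synthetases sit together in the untreated library, near the cytosolic ribosomal protein genes (9.62%) and left of the non-targeting sgRNAs (29.0%).

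The nearest comparison is with other genes of protein synthesis. Cytosolic ribosomal protein genes (79 genes), which growing cells require, had 45 of 468 sgRNAs detected without drug (9.62%, 7.10 to 12.7%). Mitochondrial ribosomal protein genes (76 genes) stood at 70 of 453 (15.5%, 12.3 to 19.1%), above the 9.80% of the mitochondrial synthetases but inside the interval of the latter. Olfactory receptor genes (375 genes), which liver-derived cells are not known to need, stood at 394 of 2204 (17.9%, 16.3 to 19.5%), and non-targeting controls at 290 of 1000 (29.0%, 26.2 to 31.9%). The interval of the 222 synthetase sgRNAs, each taken as a separate draw, lay below both of these sets. No starting plasmid pool or early time point was analysed here, so sgRNAs that left the population during culture, sgRNAs that never entered it and sgRNAs missed by the sequencing cannot be told apart.

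Counted by gene, 16 of 37 synthetases (43.2%, 27.1 to 60.5%) had any sgRNA detected in the untreated library, against 63.9% of the 18040 genes with 6 sgRNAs. The remaining 21 genes had none, 12 had 1 and 4 had 2, and no synthetase had 3 or more. Among all genes with 6 sgRNAs, 36.1% had none, 39.6% had 1, 18.7% had 2 and 4.89% had 3. The split by compartment was 12, 6 and 2 cytosolic genes and 9, 6 and 2 mitochondrial genes with 0, 1 and 2 detected sgRNAs.

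**Figure D2:**
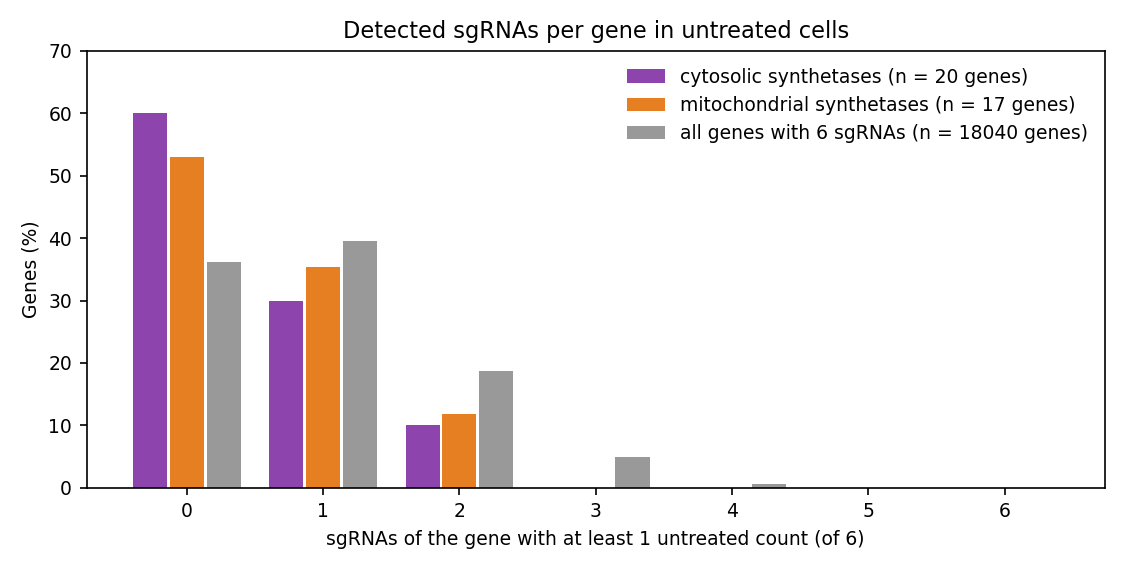
Percentage of genes (y axis) with 0 to 6 detected sgRNAs of 6 (x axis) in the untreated library, for cytosolic synthetases, mitochondrial synthetases and all genes with 6 sgRNAs. Both synthetase groups are heaviest at 0 (60% and 52.9%, against 36.1% of all genes) and end at 2.

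The sgRNAs that were present did not have low counts. The 20 detected synthetase sgRNAs had a median of 78 counts (quartiles 25 and 141.5, range 1 to 278), against a median of 62 (quartiles 14 and 121) for all detected sgRNAs. The medians were 78 for cytosolic and 79 for mitochondrial members. Summed over the family this came to 1752 counts, or 0.119% (0.114 to 0.125%) of the library, while the members make up 0.186% of sgRNAs. The lower sum came with fewer detected sgRNAs rather than with smaller counts in those detected.

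Among the cytosolic enzymes, NARS, which charges asparagine tRNA, had the highest sum: sgRNAs HGLibB_31114 and HGLibA_31154 had 159 and 152 untreated counts, and the sum of 311 ranked 577 among 18992 genes. No other cytosolic synthetase had more than one sgRNA above 10 counts. RARS, the arginyl enzyme and a subunit of the multisynthetase complex, had 1 sgRNA with 111 counts. MARS, the methionyl enzyme, also of the complex, had 104 and 3. LARS, the leucyl enzyme of the same complex, had 1 with 78, and AARS, the alanyl enzyme, 1 with 57. GARS, for glycine, had 37 counts in 1 sgRNA and QARS, for glutamine, 13.

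CARS, the cysteinyl enzyme, had a single untreated sgRNA, HGLibA_07259, with 78 counts untreated, 0 in RSL-3 and 0 in RSL-3/LA. Another CARS sgRNA, HGLibA_07260, had 0, 0 and 25 counts, or 16.8 CPM (10.9 to 24.8) in RSL-3/LA, 8.23-fold above the limit of 3 untreated counts. The sgRNA with untreated counts and the one with survivor counts were thus different. SARS, the seryl enzyme, had 0 counts for all 6 sgRNAs in all 3 libraries, so its knockout could not be followed.

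Among the mitochondrial enzymes, AARS2, the alanyl enzyme, held the most abundant sgRNA of the family, HGLibB_00072, with 278 untreated counts (190 CPM), higher than 98.8% of detected sgRNAs, and a second sgRNA with 1. TARS2, for threonine, had 178 and 10 counts. HARS2, for histidine, had 161 counts in 1 sgRNA. All 3 had 0 counts in both survivor libraries. VARS2, for valine, had 138, SARS2, for serine, 128, FARS2, for phenylalanine, 30, RARS2, for arginine, 29 and YARS2, for tyrosine, 7, each in 1 sgRNA.

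In 14 cases a cytosolic and a mitochondrial gene share an amino acid and a name. Both were detected without drug for alanine and arginine. The cytosolic gene alone was detected in 4 pairs (CARS, LARS, MARS and NARS), the mitochondrial gene alone in 5 (HARS2, SARS2, TARS2, VARS2 and YARS2), and neither in 3.

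Members were also compared by enzyme fold and by complex in the untreated library. Synthetases fall into class I and class II by the fold of the catalytic domain: the 18 class I genes had 9 of 108 sgRNAs detected (8.33%, 3.88 to 15.2%) and the 18 class II genes 11 of 108 (10.2%, 5.20 to 17.5%). EPRS, the bifunctional glutamyl-prolyl enzyme with one domain of each class, had 0 of 6. The 8 genes of the multisynthetase complex (EPRS, IARS, LARS, QARS, MARS, KARS, RARS and DARS) had 5 of 48 (10.4%, 3.47 to 22.7%), and the other 12 cytosolic genes 5 of 72 (6.94%, 2.29 to 15.5%). The intervals overlapped in each case.

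**Figure D3:**
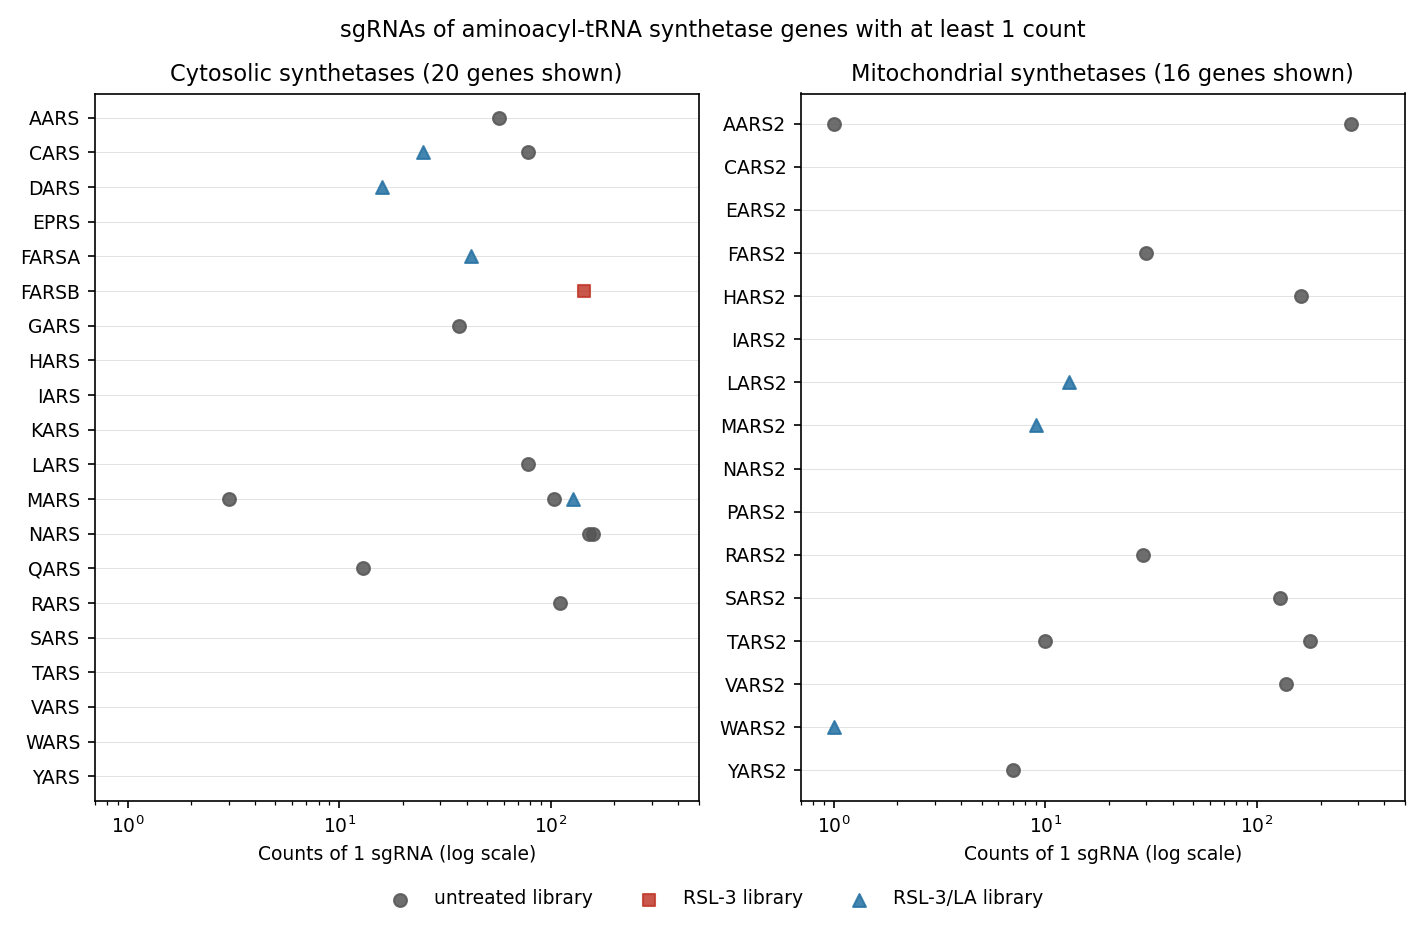
sgRNA counts of the synthetase genes (one row per gene, x axis: count on a log scale; cytosolic genes left, mitochondrial genes right) in the untreated, RSL-3 and RSL-3/LA libraries, with each point one sgRNA that had a count; 1 mitochondrial gene is not drawn. The untreated points run up to 278 (AARS2), the RSL-3 library holds 1 point (FARSB, 144), and the 7 RSL-3/LA points drawn run up to 127 (MARS).

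Every synthetase sgRNA of the untreated cells was at 0 in both survivor populations. Of the 20, 17 had at least 10 untreated counts, and all 17 (100%, 80.5 to 100%) were lost in RSL-3 and again in RSL-3/LA, 9 of 9 cytosolic and 8 of 8 mitochondrial. Among all 15047 sgRNAs with that many untreated counts, 96.1% were lost in RSL-3 and 93.7% in RSL-3/LA, so the loss was close to the background of the screen. For AARS2 HGLibB_00072 the drop was 92.7-fold in RSL-3 and 93.9-fold in RSL-3/LA when 3 survivor counts were assumed in place of 0. On the same assumption it was 59.4-fold and 60.1-fold for TARS2 HGLibA_48348, and 53.0-fold and 53.7-fold for NARS HGLibB_31114. These ratios are not strict lower bounds, because they take the untreated count as exact and use full library totals. The exact upper limit for 0 RSL-3 counts, 0.000251% of the library, lies above the 3 counts assumed (0.000204%). Scaling without the dominant survivor sgRNAs would give smaller ratios, above all in RSL-3, and was not computed here.

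After RSL-3 a single synthetase sgRNA had a count, 1 of 222 (0.450%, 0.0114 to 2.48%), against 2.46% of all sgRNAs. It targeted FARSB, the beta subunit of cytosolic phenylalanyl-tRNA synthetase. HGLibB_16864 had 0 counts untreated, 144 in RSL-3 and 0 in RSL-3/LA. The RSL-3 count is 98.1 CPM (82.7 to 115.5) and 48.0-fold above the untreated limit. The other 5 FARSB sgRNAs had 0 counts throughout, and no mitochondrial synthetase sgRNA was detected (0 of 102, upper bound 3.55%). By gene, 1 of 37 synthetases (2.70%) had an RSL-3 count against 13.5% of all genes with 6 sgRNAs.

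An sgRNA was called enriched where it reached 100 CPM and 10 times the untreated CPM, with at least 3 untreated counts assumed. None of the 222 synthetase sgRNAs met this in RSL-3 (upper bound 1.65%), where 0.419% of all sgRNAs did. FARSB missed it narrowly, since 100 CPM stood for 147 counts in that library and its sgRNA had 144. The call depended on scaling: FARSB passed at 50 CPM, with the 10 most abundant sgRNAs left out of the total, and with edgeR's TMM factors.

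The RSL-3/LA library held more sgRNAs of the family than the RSL-3 library. At least 1 count was found for 8 of 222 sgRNAs (3.60%, 1.57 to 6.98%), against 4.16% of all sgRNAs, with 4 of 120 cytosolic (3.33%) and 4 of 102 mitochondrial (3.92%), a difference of 0.588 percentage points (Newcombe interval -4.88 to 6.67). These lay in 8 genes of 37 (21.6%, 9.83 to 38.2%), against 21.95% of all genes with 6 sgRNAs. All 8 sgRNAs were at 0 in the untreated and the RSL-3 libraries, and 75.9% of all sgRNAs detected in RSL-3/LA were likewise at 0 in the untreated library.

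In RSL-3/LA, 1 of 222 synthetase sgRNAs was enriched (0.450%, 0.0114 to 2.48%) against 1.2% of all sgRNAs, a share near or below the background. The count was 0 at 1000 CPM. It was also 0 among sgRNAs with at least 1 untreated count, a value fixed in advance. No synthetase sgRNA detected in RSL-3/LA had an untreated count. DARS, the cytosolic aspartyl enzyme and a subunit of the multisynthetase complex, stayed far below the limit, with 1 sgRNA of 0, 0 and 16 counts, or 10.8 CPM.

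MARS and its mitochondrial counterpart MARS2 were both present after RSL-3/LA. MARS HGLibA_28377 had 0, 0 and 127 counts, or 85.5 CPM (71.3 to 101.7), 41.8-fold above the untreated limit. The 2 MARS sgRNAs of the untreated cells (104 and 3 counts) were at 0. MARS passed the enrichment limit at 50 CPM or with the 10 most abundant sgRNAs left out of the total. MARS2 had 0, 0 and 9 counts (6.06 CPM) in 1 sgRNA.

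FARSA, the alpha subunit that pairs with FARSB, had 0, 0 and 42 counts in 1 sgRNA, or 28.3 CPM (20.4 to 38.2), 13.8-fold above the untreated limit. LARS2, the mitochondrial leucyl enzyme, had 0, 0 and 13 counts (8.75 CPM). WARS2, the mitochondrial tryptophanyl enzyme, had 0, 0 and 1. Both phenylalanyl subunits thus had 1 survivor sgRNA each, FARSB in RSL-3 and FARSA in RSL-3/LA.

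**Figure D4:**
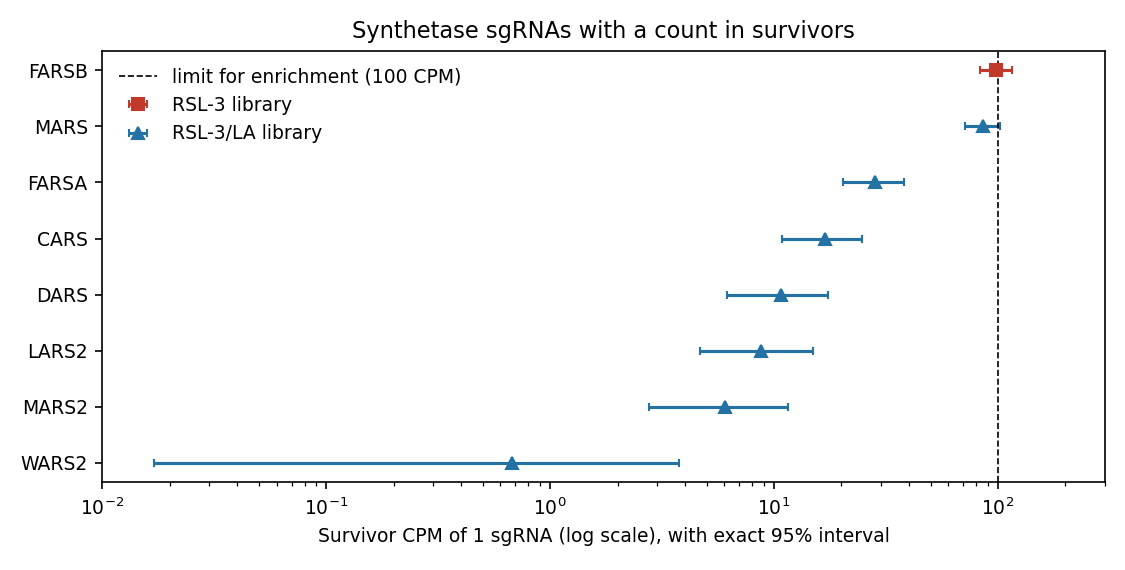
CPM (log axis) of 8 of the 9 synthetase sgRNAs with a survivor count, each named by its gene, in the library where it was found; bars are exact 95% binomial intervals for counting error only and the line marks 100 CPM. FARSB (98.1 CPM) lies just below the line, and the others range from 0.673 (WARS2) to 85.5 CPM (MARS).

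Across the 3 libraries, 29 synthetase sgRNAs had a count and none of them had one in more than 1 library, against 2286 of 24578 detected sgRNAs (9.30%) in the whole screen. MARS and CARS were the only 2 members with one sgRNA in the untreated cells and another among survivors. The share of all genes with this pattern was not computed. In the whole screen, 74.4% of the sgRNAs detected in RSL-3 and 75.9% of those in RSL-3/LA had no untreated count. The remaining 193 sgRNAs (86.9%, against 79.4% of all sgRNAs) had no count anywhere. For 14 genes this held for all 6 sgRNAs: 9 cytosolic (EPRS, HARS, IARS, KARS, SARS, TARS, VARS, WARS and YARS) and 5 mitochondrial (CARS2, EARS2, IARS2, NARS2 and PARS2). The share of all genes without a count in any library was not computed, so these 14 are a list of unmeasured genes only.

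The summed counts followed these few sgRNAs. Cytosolic members held 792 counts (0.0540% of the library) untreated, 144 (0.00981%) in RSL-3 and 210 (0.0141%) in RSL-3/LA. Mitochondrial members held 960 (0.0654%), 0 and 250 (0.0168%). In RSL-3 the whole cytosolic sum was FARSB, and in RSL-3/LA 127 of the 210 cytosolic counts were MARS.

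A further 24 genes of tRNA charging and its sensing, with 144 sgRNAs, had 23 sgRNAs detected in the untreated library (16%, 10.4 to 23.0%) against 16% of all sgRNAs, and the interval overlapped that of the synthetases. Among the genes for selenocysteine incorporation, 4 of 36 sgRNAs (11.1%) were detected: SEPSECS, which completes selenocysteine on its tRNA, had 153 and 39 counts, SEPHS2, which makes selenophosphate, 102, and EEFSEC, the elongation factor for selenocysteine, 22. All 4 were at 0 in both survivor libraries. Of all sgRNAs with at least 10 untreated counts, 96.1% were at 0 in RSL-3 and 93.7% in RSL-3/LA. The complex scaffolds AIMP2 and EEF1E1 had 1 count each, and AIMP1 had none. PET112 (now GATB), a subunit of the mitochondrial enzyme that amidates glutamine tRNA, had 214 and 195 untreated counts and 0 among survivors.

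Of the sensing genes, 7 of 30 sgRNAs (23.3%) were detected without drug, with 125 and 76 counts for EIF2AK4 and 130 and 120 for ATF4, and none among survivors. Most sgRNAs with at least 10 untreated counts were lost likewise (96.1% in RSL-3 and 93.7% in RSL-3/LA). Of the 24 genes, 3 had a survivor count, all in RSL-3, AARSD1 and PTRH2 among them, or 12.5% against 13.5% of all genes with 6 sgRNAs. AARSD1, which encodes a protein related to the editing domain of alanyl-tRNA synthetase, had one sgRNA with 80 counts untreated, 1366 in RSL-3 and 0 in RSL-3/LA, a CPM ratio of 17.1 (13.6 to 21.7) in RSL-3. A second AARSD1 sgRNA fell from 118 counts to 0 in both. PTRH2, a peptidyl-tRNA hydrolase, had one sgRNA with 0, 24 and 0 counts. Another PTRH2 sgRNA had 200 untreated counts and 0 in both survivor libraries. AARSD1 held the sole enriched sgRNA of the list in RSL-3, 1 of 144 (0.694%) against 0.419% of all sgRNAs. None of the 144 had a count in RSL-3/LA (upper bound 2.53%), against 4.16% of all sgRNAs.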

How the data were processed

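Sequenced sgRNA cassettes from genomic DNA were deposited by the authors as raw counts per sgRNA, with a table for each survivor population. Each table covered sub-libraries A and B and repeated the same untreated counts. MAGeCK is named in the submitters' processing notes; the deposited tables per target, which hold its scores, p-values, false discovery rates and ranks, were not used. Both tables were joined and each library was scaled to CPM (counts per 1000000) over its total. An sgRNA was detected at 1 count, enriched at 100 CPM and 10-fold over the untreated CPM (at least 3 untreated counts assumed), and lost at 0 survivor counts from at least 10 untreated. Shares carry exact (Clopper-Pearson) intervals, and their differences Newcombe intervals. Each condition was 1 library of 1466896 to 1485991 counts, so no test was made. Members with any count were named, members without one were listed, and SARS and CARS were always named; 1 synthetase gene and 1 gene of the charging list are in all totals but are not reported here. Members and lists were chosen with earlier results of these data known. Alternatives changed the count minimum, CPM limit, sub-library, total (edgeR 4.0.16 TMM) and members. Python 3.11.15, pandas 2.3.3, scipy 1.17.1, statsmodels 0.14.6 and matplotlib 3.10.9 were used.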

Additional observations from a re-analysis of the deposited data

How the results depend on the processing

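Of 57 alternative values, 40 stayed close to the value reported (shares inside its binomial interval, counts within 1.5 times) and 17 moved. Detection moved with the sub-library: in RSL-3 it was 0% in sub-library A alone, since FARSB lies in B, and in RSL-3/LA it was 0.901% in B alone. The count of enriched sgRNAs in RSL-3 went from 0 to 1 at 50 CPM, to 1 with the 10 most abundant sgRNAs left out of the total and to 1 with edgeR's TMM factors. In RSL-3/LA it went from 1 to 2 at 50 CPM and to 2 without those 10 sgRNAs in the total, and to 0 at 1000 CPM and to 0 among sgRNAs with at least 1 untreated count. The last setting could give only 0 in either survivor library, because no synthetase sgRNA had both an untreated and a survivor count. Without those 10 sgRNAs in the total, the summed share was 0.0278% (cytosolic, RSL-3), 0.0173% (cytosolic, RSL-3/LA) and 0.0205% (mitochondrial, RSL-3/LA). Without the most abundant member sgRNA, the cytosolic share was 0.0432% untreated, 0% in RSL-3 and 0.00559% in RSL-3/LA, and the mitochondrial share 0.0465% untreated and 0.00155% in RSL-3/LA. No paired analysis was possible because no condition has a second library. With 16% of sgRNAs detected in the untreated library, the loss of most synthetase knockouts under drug could not be measured, and 14 genes gave no measurement at all.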

Other observations

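Of the 8 synthetase sgRNAs detected in RSL-3/LA, sub-library A held 7, or 6.31% (2.57 to 12.6%) of its 111 synthetase sgRNAs against 4.42% of all its sgRNAs. Sub-library B held 1 (FARSA), or 0.901% (0.0228 to 4.92%) of 111 against 3.87%, and both intervals hold the share of all sgRNAs. In the untreated library the shares were 9.91% (5.05 to 17.04%) in A and 8.11% (3.78 to 14.83%) in B, against 17.14% and 14.79% of all sgRNAs. The share of all sgRNAs thus lay just above the upper bound in A and just below it in B.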
